A study of Mus musculus with 6 samples.

Results

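In mouse MLL-AF9 leukaemia cells, 45 of 23770 array rows were lower by at least 1 log2 unit after knockdown of Kdm1a and stayed below control on every array. A row is 1 gene identifier with 1 log2 expression value per array. A row was taken when the mean of its 3 knockdown values lay at or below the mean of its 3 control values by 1 log2 unit, which is a 2-fold difference, and when its highest knockdown value lay below its lowest control value. The row of the knockdown target itself was left out. Of the 45 rows, 16 summarise at least 2 probe sets, and 14 of these take a gene symbol from the annotation of their probe sets. They are Thbs1, Clec4a2, Grsf1, Tmem59, Vta1, Arpc1a, C1d, Smpdl3a, Lactb, Nkiras1, Ggps1, Zxdb, Sfmbt1 and A530064D06Rik. The means over all probe sets of Sfmbt1 and of A530064D06Rik differed by only -0.47 and -0.64, short of 1 log2 unit. The other 29 rows rest on a single probe set, and 8 of them carry a symbol. The rows were chosen by these 6 log2 values, so their differences are given as a description and no test of them is reported. The rule with the target row included was met by 46 rows, 0.194% of the table, and the opposite rule, doubled with no overlap, by 20 rows, 0.0841%. Rows lower with no overlap, at any size, made up 6.07% of the table.

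The data comprised 6 arrays, 3 from control samples and 3 from Kdm1a knockdown samples. All were of C57BL/6 acute myeloid leukaemia cells carrying the MLL-AF9 fusion and enriched for leukaemia stem cells. Cryopreserved cells were thawed, spinoculated with viral supernatant and kept in it overnight, in the control group too. The sources used here do not state the hairpin, the control virus or the time to RNA collection. The design text speaks of 3 samples from 2 animals without saying which sample is from which animal, so p-values rest on the sample-to-sample spread alone, and part of it may be technical. RNA came from bulk cells, so a loss of cells of one kind and less RNA per cell cannot be told apart. The deposited log2 values ran from 0.931 to 12.9, with array medians between 5.12 and 5.26.

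KDM1A, also called LSD1, removes methyl groups from lysine 4 of histone H3. It works inside the CoREST repressor complex with RCOR proteins and histone deacetylases, and transcription factors such as GFI1 bring it to their target genes. In myeloid leukaemia it is known as a factor that holds cells in an immature state, and its loss is known to favour differentiation.

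The targeted gene was lower on all knockdown arrays. The row that the rule names as the target stood at 8.03, 8.12 and 8.12 in control replicates 1 to 3 and at 6.37, 6.27 and 6.33 in knockdown replicates 1 to 3. It was the only row of the table past the threshold of 0.05, with a log2 difference of -1.77 (SE 0.115, limma, adjusted p = 0.0193), and it is 0.00421% of the table. Without adjustment, at p under 0.05, limma gave 839 lower rows, 3.53%, and 416 higher rows. This lean toward lower rows depended on the scaling, with 688 lower and 593 higher rows after quantile normalization and 973 and 323 after median centring. The lower count also moved with single arrays, from 484 without knockdown replicate 2 to 1584 without control replicate 1. After quantile normalization the target's adjusted p was 0.0505 in limma, and with any 1 array left out it lay between 0.135 and 0.285. The array annotation places 23 probe sets on Kdm1a, and 22 of them were lower in knockdown. Of these probe sets, 20 had no overlap between the groups, and the median log2 difference was -2.11, with a range from -3.69 to 0.40. The mean over these probe sets was 8.12 in control (SD 0.0381, n = 3) and 6.16 in knockdown (SD 0.133, n = 3), which is 25.7% of the control level.

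Promoter sequence is shown for the halved genes that were measured by at least 9 probe sets and whose window holds the ETS core GGAAGT. Thbs1 and Smpdl3a, without a window, and Tmem59 and Lactb, without GGAAGT in theirs, are therefore not shown. This selection was made after the motif search. The windows are RefSeq sequence of build GRCm38.p6, from 250 bases before to 50 bases after an annotated transcript start, which need not be the outermost start of the gene, read 5′ to 3′ on the gene's strand. They lie at chr6:123122440-123122739 on the plus strand for Clec4a2, chr10:14705440-14705739 on the minus strand for Vta1, chr5:145083619-145083918 on the plus strand for Arpc1a and chr5:88676122-88676421 on the minus strand for Grsf1. Capitals mark each match, on either strand, to GGAAGT (ETS), AATCAC (GFI1), TGTGGT (RUNX), CACGTG (MYC) or GGGCGG (SP1).
Clec4a2: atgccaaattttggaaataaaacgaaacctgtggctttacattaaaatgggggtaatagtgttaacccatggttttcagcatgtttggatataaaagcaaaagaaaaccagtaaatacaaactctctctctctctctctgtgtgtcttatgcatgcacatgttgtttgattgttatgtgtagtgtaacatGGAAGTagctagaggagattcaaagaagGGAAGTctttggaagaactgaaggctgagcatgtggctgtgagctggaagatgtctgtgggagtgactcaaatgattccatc
Vta1: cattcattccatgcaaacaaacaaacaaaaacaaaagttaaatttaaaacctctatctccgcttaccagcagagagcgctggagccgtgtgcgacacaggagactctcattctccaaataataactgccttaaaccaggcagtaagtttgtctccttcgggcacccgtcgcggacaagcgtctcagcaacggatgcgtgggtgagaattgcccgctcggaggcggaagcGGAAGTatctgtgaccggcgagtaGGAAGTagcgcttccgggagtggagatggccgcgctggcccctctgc
Arpc1a: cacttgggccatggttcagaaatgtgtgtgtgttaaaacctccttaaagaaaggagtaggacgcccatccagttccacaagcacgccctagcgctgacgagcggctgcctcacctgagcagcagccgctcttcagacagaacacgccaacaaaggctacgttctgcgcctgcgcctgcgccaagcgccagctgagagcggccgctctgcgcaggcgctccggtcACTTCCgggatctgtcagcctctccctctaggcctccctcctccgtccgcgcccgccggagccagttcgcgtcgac
Grsf1: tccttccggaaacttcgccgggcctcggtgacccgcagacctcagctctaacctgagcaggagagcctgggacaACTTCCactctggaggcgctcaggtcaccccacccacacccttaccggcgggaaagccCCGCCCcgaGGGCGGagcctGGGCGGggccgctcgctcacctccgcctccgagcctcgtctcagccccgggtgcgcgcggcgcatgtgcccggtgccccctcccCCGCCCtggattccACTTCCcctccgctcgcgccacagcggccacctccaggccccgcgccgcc

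Of the 14 named genes with at least 2 probe sets, 11 had RefSeq windows, 12 in all because Grsf1 has 2. GGAAGT stood in 5 of the 12 windows, those of Clec4a2, Vta1, Arpc1a, Grsf1 and A530064D06Rik, against 23.8% of 32851 windows of all genes. GGGCGG stood in 6 of the 12, against 35.7% of all windows, and these belong to C1d, Lactb, Sfmbt1, Tmem59 and both Grsf1 starts. The GFI1 core AATCAC was found in 1 window, that of Zxdb, against 10.4% of all windows. TGTGGT stood in the Tmem59 window alone, against 16.8% of all, and CACGTG in the Sfmbt1 window alone, against 7.15%. The windows had a median GC content of 56.5% and a median of 23.5 CpG dinucleotides, where all windows had 52.7% and 7. All windows were not matched for expression level, and Grsf1 enters with 2, so this is not shown to be particular to the halved genes. They ranged from 39.3% GC with 1 CpG in Clec4a2 to 75% GC with 48 CpG in a Grsf1 window. No motif contains another, though ends can share bases, and CACGTG reads the same on both strands. A match is a description of letters, and so is the lack of one.

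Among secreted and surface proteins, Thbs1 and Clec4a2 were halved. Thbs1 encodes thrombospondin 1, a secreted matrix glycoprotein that myeloid cells and platelets release. Its row stood at 8.70, 9.03 and 9.14 in control and at 7.80, 7.83 and 8.05 in knockdown. The groups did not overlap, and Thbs1 had the highest control level of the 45 rows. The means were 8.96 ± 0.230 (SD, n = 3) and 7.90 ± 0.135 (SD, n = 3), a log2 difference of -1.06 or 2.09-fold. All 27 of its probe sets were lower in knockdown, with log2 differences from -1.97 to -0.29, and 23 of them had no overlap.

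Clec4a2, a C-type lectin receptor with an inhibitory motif found on myeloid cells, stood at 6.63, 6.33 and 6.51 in control and at 5.67, 4.68 and 4.81 in knockdown. Knockdown replicate 1 lay nearest to the control arrays. The means were 6.49 ± 0.154 (SD, n = 3) and 5.05 ± 0.535 (SD, n = 3), a log2 difference of -1.44 or 2.71-fold. Of its 10 annotated probe sets, 9 were lower and 7 were halved with no overlap, and 1 differed by 0.51 in the other direction.

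Several halved genes act in membrane traffic and the cytoskeleton. Tmem59, a membrane glycoprotein of the Golgi and late endosomes linked to autophagy, stood at 8.06, 8.36 and 8.53 in control and at 6.81, 6.87 and 7.26 in knockdown. The groups were separated by more than the spread within either. Its means were 8.32 ± 0.236 (SD, n = 3) and 6.98 ± 0.243 (SD, n = 3), a log2 difference of -1.34 or 2.53-fold. Of its 13 probe sets, 12 were lower, 11 of them halved with no overlap.

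Vta1, a cofactor of the VPS4 ATPase in sorting to multivesicular bodies, stood at 8.24, 8.56 and 8.55 in control and at 7.09, 7.04 and 7.43 in knockdown. The log2 difference was -1.26 or 2.40-fold, with SDs of 0.184 and 0.210 (n = 3 each). All 9 of its probe sets were lower with no overlap between the groups, and 5 of them were halved.

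Arpc1a, a subunit of the actin-nucleating Arp2/3 complex, stood at 7.80, 8.40 and 8.40 in control and at 6.81, 7.13 and 7.40 in knockdown. Control replicate 1 lay between the knockdown arrays and the other control arrays. The log2 difference was -1.08 or 2.12-fold. All 12 of its probe sets were lower, 9 of them with no overlap.

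A further set acts on RNA or in the nucleus. Grsf1, an RNA-binding protein of the mitochondrial RNA granules, stood at 8.51, 8.34 and 8.51 in control and at 7.15, 7.19 and 7.32 in knockdown. It had tight groups, with SDs of 0.0982 and 0.0891 (n = 3 each) and a gap of 1.02 between the lowest control and the highest knockdown array. The log2 difference was -1.23 or 2.35-fold, and 12 of its 13 probe sets were lower, 10 with no overlap.

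C1d, a cofactor of the nuclear RNA exosome, stood at 8.12, 8.31 and 8.27 in control and at 7.34, 6.97 and 7.30 in knockdown. The log2 difference was -1.03, and 6 of its 7 probe sets were lower with no overlap. Sfmbt1, a Polycomb-related protein with malignant brain tumour repeats, stood at 6.52, 6.75 and 6.64 in control and at 5.33, 5.57 and 6.01 in knockdown. This row averages only 2 of the 29 probe sets of Sfmbt1, whose median difference was -0.45, with 26 of 29 lower and 2 halved. Zxdb, an X-linked zinc finger protein, stood at 6.48, 7.08 and 6.82 in control and at 5.65, 5.50 and 6.16 in knockdown, and both of its probe sets were halved.

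The remaining named genes of this kind encode enzymes and a signalling inhibitor. Ggps1, which makes the geranylgeranyl diphosphate used to prenylate small GTPases, stood at 5.79, 6.30 and 6.77 in control and at 4.33, 5.06 and 5.45 in knockdown. Its log2 difference was -1.34, carried unequally by its 2 probe sets, at -2.29 and -0.39. Lactb, a mitochondrial serine protease related to bacterial beta-lactamases, stood at 7.17, 7.95 and 8.16 in control and at 6.24, 6.62 and 7.13 in knockdown. Its groups nearly met, with a gap of 0.0392, and 4 of its 10 probe sets had no overlap.

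Smpdl3a, a phosphodiesterase related to acid sphingomyelinase, stood at 7.27, 8.01 and 7.92 in control and at 6.36, 6.69 and 7.10 in knockdown. All 13 of its probe sets were lower, and 7 of them had no overlap. Nkiras1, a small GTPase-like inhibitor of NF-kB signalling, stood at 6.88, 7.54 and 7.38 in control and at 6.17, 6.11 and 6.41 in knockdown, and all 4 of its probe sets were lower with no overlap. A530064D06Rik, for which no role is given here, stood at 5.05, 4.18 and 4.37 in control and at 3.74, 3.07 and 2.87 in knockdown, on 2 of its 3 probe sets. The mean of all 3 differed by only -0.64.

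**Figure D1:**
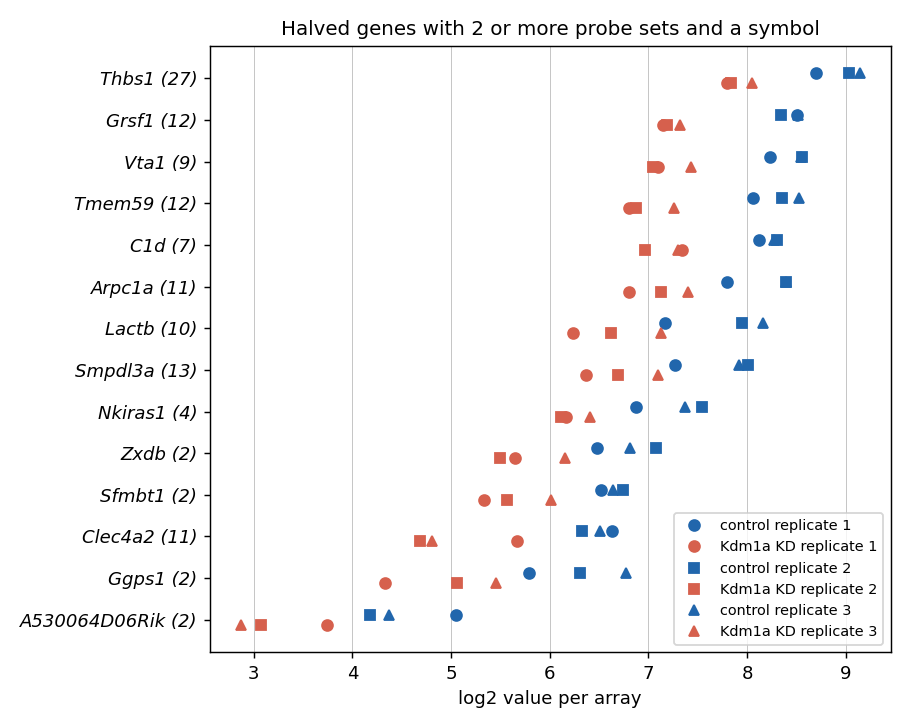
Log2 expression on each array for the named halved genes, with control and knockdown arrays in separate colours and each point 1 array, and the number of probe sets behind the row in brackets. In every gene all 3 knockdown points lie below all 3 control points, which the selection rule required, and the width of the gap ranges from 0.0392 in Lactb to 1.02 in Grsf1 among the named genes of at least 9 probe sets.

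Over the 14 named genes, the array annotation holds 154 probe sets, of which 144 were lower in knockdown and 108 had no overlap, 70.1%. Over all 267824 probe sets, 52.7% were lower, 6.08% were lower with no overlap and 0.873% were halved with no overlap. Most of these probe sets enter the rows, on the same arrays, but only 2 of the 29 Sfmbt1 probe sets do. The counts show how evenly a difference is spread over a transcript and are not a second measurement. Thbs1, Vta1, Arpc1a, Smpdl3a, Nkiras1, Ggps1 and Zxdb had every probe set lower. Clec4a2, Tmem59, Grsf1, C1d and A530064D06Rik each had 1 probe set that differed in the other direction, Lactb had 2 and Sfmbt1 3.

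**Figure D2:**
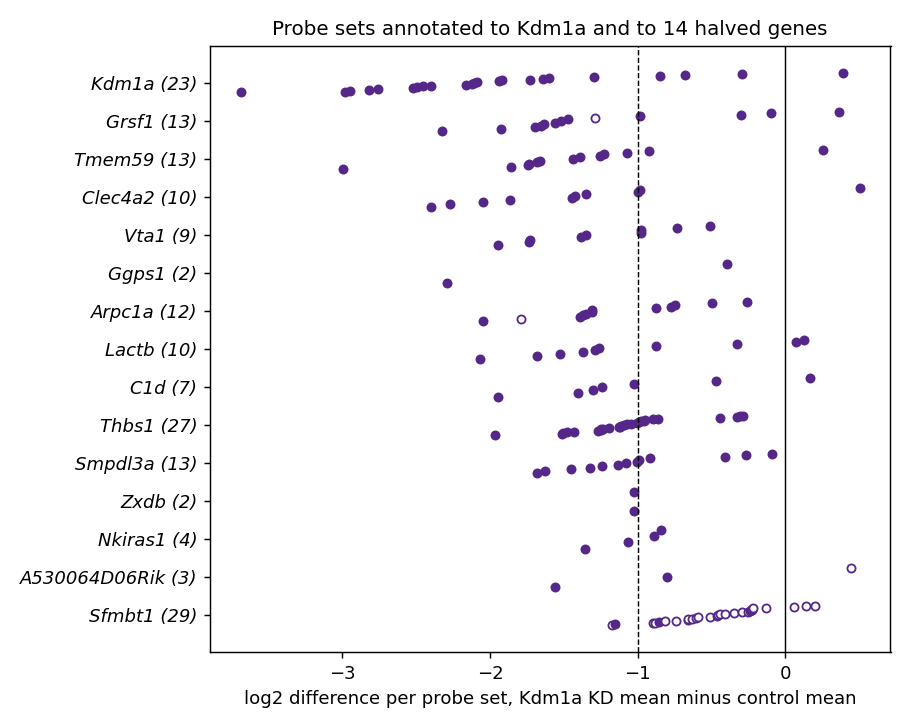
Log2 difference, knockdown minus control, of every probe set that the array annotation gives to Kdm1a and to the named genes of at least 2 probe sets, each point 1 probe set, open where the gene's row does not include it. Points of Kdm1a are all filled, although the target row could not be tied to probe sets. Most points lie below 0 in each gene, and Sfmbt1, with 29 probe sets, sits closer to 0 than the row built on 2 of them.

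The 29 rows that rest on 1 probe set make up 64.4% of the 45, where such rows make up 13% of the table. The rule was met by 0.935% of the 1-probe-set rows and by 0.0774% of the others. All 20 rows that were doubled with no overlap were also 1-probe-set rows, and no other row was doubled in this way. Among rows not equal to 1 probe set, with the target left out, 16 were therefore halved and 0 doubled. These other rows include 14218 that equalled neither 1 probe set nor the mean of all probe sets of a symbol. The probe sets behind those were searched further only for the halved rows and the target. The halved count of such rows was 9 after quantile normalization and 18 after median centring, with 0 doubled in both.

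**Figure D3:**
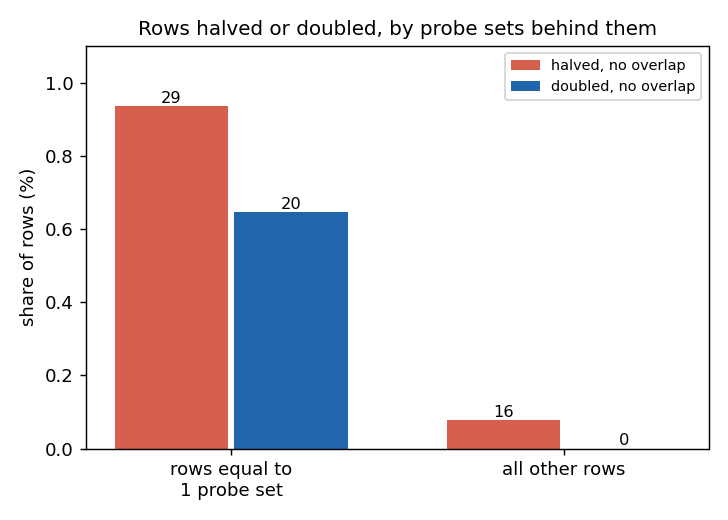
Share of rows, in percent, that were halved or doubled with no overlap, for rows equal to 1 probe set and for all other rows. Halved and doubled shares are 0.935% and 0.645% among 1-probe-set rows and 0.0774% and 0% among the others.

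Single-probe-set rows lay low on the intensity scale, whether halved or not. Of the 29 halved ones, 17 fell in the lowest 25% of the table by mean level, 58.6%, and of all 3100 such rows 46.9% did. Of the 16 rows of more probe sets, 2 fell in the lowest 25% and 8 in the highest. The median log2 level was 3.63 for the former and 6.98 for the latter, against 4.22 over all single-probe-set rows and 5.20 over all rows. Levels of different rows come from different probes and describe only where a row sits in the array's range, and no detection call accompanies the values.

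The largest difference of all belonged to ENSMUSG00000033186, which equals 1 of the 2 probe sets of Mzt1, a small subunit of the gamma-tubulin ring complex that nucleates microtubules. It stood at 5.88, 6.16 and 5.63 in control and at 4.05, 2.74 and 4.28 in knockdown, a log2 difference of -2.20 or 4.59-fold. The other Mzt1 probe set differed by 0.30 in the opposite direction. ENSMUSG00000079594, which averages 2 probe sets without a gene symbol, followed at 6.22, 4.58 and 4.81 in control and 4.58, 2.47 and 2.92 in knockdown. There the lowest control value and the highest knockdown value nearly met.

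Of the 8 single-probe-set rows with a symbol, 4 are olfactory receptors, G protein-coupled receptors best known from the nasal epithelium. Such receptors make up 388 of the 1186 single-probe-set rows with 1 symbol, 32.7%, and 9 of the 11 doubled rows with 1 symbol, and Olfr723 had the highest difference of all symbol means, 1.35. Olfr800 stood at 5.05, 5.77 and 5.58 in control and at 4.40, 3.30 and 3.56 in knockdown. The other olfactory receptor rows, Olfr607, Olfr1501 and Olfr933, had differences of -1.16, -1.37 and -1.09, and knockdown replicate 2 was the lowest array in all 4. Stard6, a lipid-transfer protein of the START family known from mouse testis, stood at 4.14, 5.66 and 4.24 in control and at 3.11, 3.63 and 2.66 in knockdown.

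The last 2 named rows of this kind do not stand for their whole gene. Akt2, a serine/threonine kinase of insulin signalling, entered through 1 of its 6 probe sets, at 5.20, 6.13 and 5.11 in control and 4.91, 4.13 and 4.05 in knockdown. The mean over all 6 Akt2 probe sets differed by 0.09 in the opposite direction, with single probe sets up to 1.17. Eno1, the glycolytic enzyme enolase 1, entered through 1 of 2 probe sets, at 3.45, 3.21 and 2.26 in control and 1.79, 2.18 and 1.77 in knockdown, and the mean of both differed by -0.71. The 20 single-probe-set rows without a symbol had differences between -1.64 and -1.02 and control means between 3.25 and 6.50, and 2 of them held the same values. A further row rests on a probe set that the annotation gives to several genes, and it is not named.

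**Figure D4:**
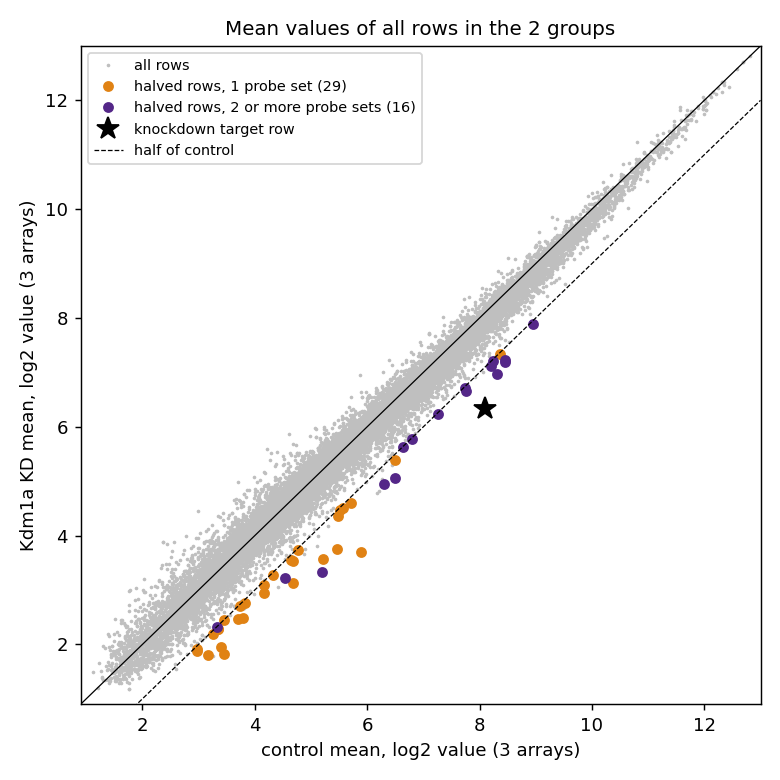
Mean log2 value in control (x) against mean in Kdm1a knockdown (y), n = 3 arrays each, for all rows in grey, the halved rows of 1 probe set and of at least 2 probe sets in colour, and the target row as a star, with a dashed line 1 log2 unit below equality. The median levels, averaged over both groups, are 3.63 for rows of 1 probe set and 6.98 for rows of more, so the latter sit further up the scale.

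The arrays did not contribute evenly. Matched by replicate number, the 45 rows had median differences of -0.90, -1.47 and -1.10 for numbers 1, 2 and 3, and the same over all rows were -0.03, -0.03 and -0.02. Knockdown replicate 2 was the lowest knockdown array in 23 of the 45 rows, and replicate 1 in 12. Control replicate 1 was the lowest control array in 20 of the 45 rows and in 11 of the 16 rows of at least 2 probe sets. In those 16 rows knockdown replicate 3 was the highest knockdown array 11 times and replicate 2 never. The order of the arrays was not counted over all rows, so it is not shown to be particular to the halved rows. A difference of at least 1 in each same-numbered pair was found in 11 of the 45 rows.

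**Figure D5:**
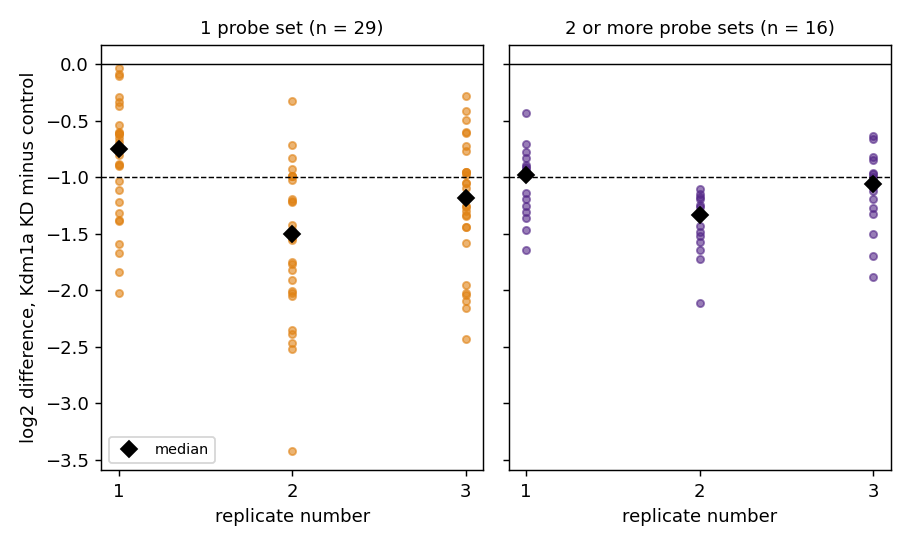
Log2 difference, knockdown minus control, between arrays of the same replicate number, each point 1 halved row and diamonds the medians, with rows of 1 probe set on the left and rows of more on the right. Over all 45 rows, number 2 holds the largest differences, with a median of -1.47, and number 1 the smallest, with a median of -0.90.

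The median spread within groups lay above that of all rows of the same kind, only slightly so for the control arrays of single-probe-set rows. For the 29 single-probe-set rows the median SD was 0.370 in control and 0.442 in knockdown, where all rows of 1 probe set had 0.366 and 0.365. For the 16 rows of at least 2 probe sets it was 0.266 and 0.345, where all other rows had 0.174 and 0.183. The gap between the lowest control and the highest knockdown array had a median of 0.426, reached 0.5 in 18 of the 45 rows and was under 0.1 in 5. Membership leaned on single arrays. With the arrays left out one at a time, 14 of the 45 rows met the rule every time, among them Clec4a2, Tmem59, Vta1, Grsf1, Ggps1 and A530064D06Rik. Leaving out an array cannot make the groups of a halved row overlap, so only the 2-fold limit could fail. These rows are mostly those with the largest differences, and their staying is a description of the values that chose them. Without control replicate 1 the rule found 165 rows, without knockdown replicate 1 it found 111, and without knockdown replicate 3 it found 85. No overlap is easier to meet with fewer arrays, which by itself lets more rows in. After quantile normalization of the deposited values, 35 of the 45 rows still met the rule, but only 8 of the 16 rows of at least 2 probe sets. Thbs1, Arpc1a, Lactb, Smpdl3a, C1d, Nkiras1, Zxdb and Sfmbt1 then no longer met it, with log2 differences between -0.99 and -0.89.

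At the threshold itself, the last rows inside were the Sfmbt1 row, at -1.001, and a row of 2 probe sets without a symbol, at -1.002. The nearest rows outside, both without a symbol, were at -0.995 and -0.991.

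The halved rows were set beside 20 lists of genes for myeloid differentiation, leukaemia stem cells and other cell types the samples could hold, each gene taken as the mean of all probe sets of its symbol. Over 18916 symbols the median log2 difference was -0.021 and 54.6% lay below 0. Means halved with no overlap numbered 20 symbols, 0.106%, Kdm1a among them, and 17 of the other 19 were also among the 45 rows. Clec4a2, in the monocyte and macrophage list, was the only list gene other than Kdm1a that was halved. That list had 13 of 21 measured genes below 0 and a median of -0.101. The secondary granule and mature neutrophil list had the lowest median, -0.35, with 14 of 18 genes below 0, and 1 of the 18 lower with no overlap, where 6.16% of all symbols were. Its lowest gene, the neutrophil collagenase Mmp8, stood at -0.93.

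The MLL fusion target, leukaemia stem cell and primary granule lists each held 1 or 2 genes lower with no overlap, where 6.16% of all symbols were. The MLL fusion target list had 13 of 21 genes below 0 and 8 above, with a median of -0.092. In it 1 gene, Eya1 at -0.13, was lower with no overlap. The groups overlapped for the MLL-AF9 target genes Meis1, at 9.19 in control and 9.01 in knockdown, and Hoxa9, at 7.52 and 7.31. The leukaemia stem cell list had 11 of 18 below 0 and a median of -0.016, and 2 of the 18 were lower with no overlap, Bmi1 at -0.52 and Prom1 at -0.30. The primary granule list had 6 of 10 below 0, 1 with no overlap, and Mpo, Ctsg and Prtn3, granule enzymes of immature myeloid cells, stood at 8.31, 10.9 and 9.29 in control and at 8.73, 10.9 and 9.10 in knockdown. Each symbol has probes of its own, so levels only describe the lists. Control values ran from 7.79 to 11.1 over the primary granule list, from 2.44 for Hbb-b1 to 8.64 for Tfrc over the erythroid list, and from 3.26 for Dntt to 7.39 for Cd79b over the B cell list. They ran from 3.50 to 7.60 over the megakaryocyte list, from 3.42 to 6.09 over the T and NK cell list and from 3.29 to 8.16 over the stromal and endothelial list. The cell cycle list had 16 of 23 genes below 0 and a median of -0.106, and the interferon list 13 of 20 and -0.065.

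Medians of the other lists lay between -0.234 for eosinophil genes and 0.116 for stromal and endothelial genes, and none held a halved or doubled gene apart from Kdm1a in its own list. MHC class II genes had a median of -0.168, dendritic cell genes 0.051, mast cell and basophil genes 0.019, erythroid genes 0.043, megakaryocyte genes 0.076 and B cell genes 0.006. T and NK cell genes had a median of -0.038, immediate early genes -0.039 and histone genes -0.006 over 4 measured genes, and no mitochondrially encoded gene was measured. The list of CoREST and GFI1 partners, which also holds Kdm1a and its paralogue Kdm1b, had 14 measured genes and a median of -0.067. Of these, 4 were lower with no overlap, where 6.16% of all symbols were: Kdm1a, Hdac2 at -0.65, Kdm1b at -0.41 and Rcor1 at -0.24. Kdm1a is the knockdown target, so its place in this count was set by the experiment. A further 3 were higher with no overlap, where 4.51% of all symbols were: Rcor2 at 0.11, Hmg20b at 0.23 and Insm1 at 0.39. The groups overlapped for Gfi1, Gfi1b, Phf21a, Rcor3, Zmym2, Zmym3 and Gse1. The part of any other cell type in the differences of the 45 rows was not tested.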

How the data were processed

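The authors deposited a gene-level table and a probe-set table of log2 values for 6 arrays, and RMA is named without a version per the submitters' processing notes. The log2 scale was read from the values. The sources used here do not give the platform, annotation release or build. RMA and the amplification may compress differences. The gene table carries identifiers only. Rows were tied to probe sets where the deposited log2 value equalled the mean of probe-set values, some of them entered 2 times, within 1e-06 on all 6 arrays, which resolved all 45 halved rows but not the target row. Of 267824 probe sets, 242247 had 1 symbol in the platform annotation, 2077 several and 23500 none. Of 18957 symbols, 3003 were updated through RefSeq synonyms and 48 were not found there.

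The table was fitted with limma 3.58.1 in R 4.3.3 (lmFit, eBayes, two-sided, Benjamini-Hochberg over all rows), after a test on simulated data. Other steps used Python 3.11.15, numpy 2.4.6, pandas 2.3.3 and matplotlib 3.10.9. The halved rows and the 20 gene lists were chosen with earlier results of these data known. Named were those of the first 25 rows by difference that carry a symbol, 2 identifiers with the largest differences, the 3 rows with the highest control mean, those beside the threshold and list genes. Other halved rows with a symbol, and the list genes given values, were named after their values were seen. Every fold change is a difference of log2 means. Normalization, filters, fold limits, pairing and left-out arrays were varied.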

Additional observations from a re-analysis of the deposited data

How the results depend on the processing

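The count of 45 halved rows depended on the rule's settings. It was 212 at a 1.5-fold limit and 5 at a 3-fold limit, 26 without the lowest 25% of rows and 15 without the lowest 50%. With the replicate block, taken as a difference of at least 1 in each same-numbered pair, it was 11. Leaving out each array in turn gave 48 to 165 rows, where no overlap is easier to meet with fewer arrays. Median centring gave 53 rows, quantile normalization 39 with 35 shared, group medians 41 with 36 shared, allowing overlap 66 and counting identical rows once 44. Among halved and doubled rows, the halved made up 69.2% as deposited, 77.9% after median centring and 67.2% after quantile normalization.

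For rows past the threshold in limma, the count of 1 lower row became 0 with quantile normalization and with the fixed replicate block, and ranged from 0 to 0 when each array was left out. At unadjusted p under 0.05, 839 rows were lower and 416 higher in the unaltered comparison, 688 and 593 after quantile normalization, 1513 and 649 with the fixed block, and 484 to 1584 were lower with an array left out. The target row differed by -1.65 after quantile normalization (limma, adjusted p = 0.0505) and by -1.77 with the fixed replicate block (limma, adjusted p = 0.163). With the replicate block as a random effect it kept its call (limma, adjusted p = 0.00591). It differed by -1.80 to -1.74 when each array was left out, and its adjusted p over the alternatives ran from 0.00578 to 0.285. The causes were not tested. Same-numbered samples deviated together with correlations of 0.543, 0.0806 and 0.251. The main fit did not pair them because no label ties the numbers to animals. What same-numbered samples may share was not tested.

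As the mean of all its probe sets, Akt2 stood at 0.093, opposite in sign to its row. On the same scale Mzt1 stood at -0.95, A530064D06Rik at -0.64 and Sfmbt1 at -0.47. No detection call accompanies the values, so signal over background could not be weighed.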
